A study of Mus musculus with 12 samples.

Results

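Tenascin C (Tnc), Ccn2 and 7 further genes of matricellular proteins and their circle, Ccn1, Spon1, Cilp, Postn, Thbs1, Tgfbi and Ankrd1, were followed across mouse colon tumours. The genes were chosen from the log2 differences between the 4 groups of these same tumours, and all probe sets annotated to one of the symbols alone were taken. This gave 9 of 18193 genes, with 21 of 45037 probe sets. All 9 passed the filter on low values, as did 11070 genes in all. Since measured values chose them, what follows on these 9 genes is a description. Whether one of them passed the threshold of the model over all genes is given beside the share of all genes that did, and is not evidence that it differs.

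The tumours had been grown in the cecum of C57BL/6 mice from MC38 cells, a colon carcinoma line of the mouse. All cells carried a hairpin against Tdo2 that doxycycline (Dox) switches on, and Tdo2 encodes an enzyme that opens the ring of tryptophan. The 4 groups of 3 tumours were APC-WT without Dox, APC-WT with Dox given in the drinking water, APC-KO without Dox and APC-KO with Dox, where APC is the scaffold protein that restrains beta-catenin. RNA of whole tumours had been read on Affymetrix arrays, and the deposited values are log2 expression values. The labels do not give the age of the mice, the promoter of the hairpin, the number of clones behind each genotype or the animal of each tumour, so the p-values below measure the spread between samples that may be technical replicates. Tumours with Dox but no hairpin were not analysed here, so Dox and the hairpin cannot be told apart. In bulk tumour RNA, fewer cells of a type and less RNA per cell cannot be told apart either.

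Matricellular proteins are secreted into the matrix around cells and tune adhesion, growth factor signals and repair rather than bearing load. Tenascin C and periostin are typical products of activated fibroblasts in healing wounds and tumour stroma, and the CCN proteins, thrombospondin 1 and the muscle protein ANKRD1 are textbook targets of YAP and TAZ, the transcription partners of TEAD factors that the Hippo pathway restrains. TGF-beta signalling raises several of them, including the gene of the TGF-beta-induced protein, Tgfbi. A log2 difference of 1 is a doubling in level, and a gene is called below where its Benjamini-Hochberg adjusted p over the 11070 tested genes, in one limma model of all 12 arrays, is under 0.05. The floor of 5.55, the median of the probe set means, is a filter and not a measured background.

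The arrays differed little in overall level, with medians between 5.535 and 5.576, and correlations between arrays of a group lay between 0.995 and 0.998. The 3 probe sets of Tdo2 had means of 2.59, 3.12 and 3.85, all under the floor, so the hairpin's effect on its target could not be read. Apc was read by several probe sets, with differences given as APC-KO minus APC-WT (SE, 3 tumours per group, limma p adjusted across probe sets). The largest was -0.84 ± 0.09 in untreated and -0.94 ± 0.09 in Dox-treated tumours (adjusted p 1.02e-05 and 3.08e-06). Next came -0.41 ± 0.11 and -0.49 ± 0.11 (adjusted p 0.0187 and 0.00647). A weaker one, from the Apc probe set of highest mean (8.39), read -0.10 ± 0.07 and -0.24 ± 0.07 (adjusted p 0.416 and 0.0443). The remaining one, with a mean of 3.13 under the floor, read 0.03 ± 0.09 and -0.19 ± 0.09 (adjusted p 0.898 and 0.212). Of the epithelial markers that a colon carcinoma would be checked by, 4 of 8, Krt18, Krt20, Cldn7 and Vil1, lay under the floor on every array. Tumours are named below by group and by the replicate number of the labels, as in untreated APC-WT tumour 3.

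With Dox, most of the 9 genes read lower in both genotypes, and the differences were largest for Spon1, Tnc and Ccn2 in APC-WT and for Ccn2, Ccn1 and Thbs1 in APC-KO. In APC-WT tumours Tnc, Ccn2, Spon1 and Tgfbi were lower in all 3 Dox tumours than in any tumour without Dox, 4 of 9 genes beside 10.3% of all tested genes. In APC-KO tumours the genes that separated in that way were Ccn2, Ccn1 and Thbs1, 3 of 9 beside 9.67%. By the probe set that was tested for each gene, Ccn2 alone of the 9 separated in both, which 1.46% of all tested genes (162 of 11070) did. Some other probe sets of Tgfbi did so too. Of the 9 differences, 8 were below 0 in each genotype, beside 53% and 49.2% of all tested genes. The median difference over the 9 genes was -0.62 in APC-WT and -0.17 in APC-KO, against -0.01 and 0.00 over all tested genes. The comparisons share no tumours, but the genes were chosen with both known, so nothing is read from these shares.

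Tnc, which encodes the hexameric glycoprotein tenascin C, was highest in APC-WT tumours without Dox, at log2 levels of 7.52, 7.20 and 6.59. The 3 APC-WT tumours with Dox read 6.18, 5.87 and 5.92, all below those. In APC-KO tumours without Dox it was 5.94, 5.66 and 6.05, and with Dox 5.10, 5.69 and 5.22, where 2 of the 3 values lay under the floor. Tnc thus stood highest in 1 group, while the other neighbours in the order of group means, APC-WT with Dox, APC-KO without Dox and APC-KO with Dox, overlapped. The difference with Dox was -1.12 ± 0.21 (SE of the fit) for APC-WT and -0.55 ± 0.21 for APC-KO, and neither was called. A second Tnc probe set, with a mean of 2.60, lay far under the floor and could not add to this.

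Ccn2, which encodes connective tissue growth factor, was lower with Dox in both genotypes. Without Dox it read 6.75, 7.62 and 6.29 in APC-WT tumours and 7.55, 7.81 and 7.63 in APC-KO tumours. With Dox it read 5.77, 5.83 and 5.78 in APC-WT and 6.16, 6.13 and 6.27 in APC-KO tumours. The spread among tumours was therefore widest in APC-WT tumours without Dox, and the groups with and without Dox did not overlap in either genotype. The differences were -1.09 ± 0.23 for APC-WT and -1.48 ± 0.23 for APC-KO. Ccn2 was the 1 of 9 genes called with Dox in APC-KO, where 0.542% of all tested genes were called. That call was lost when untreated APC-KO tumour 1, or Dox-treated APC-KO tumour 2 or 3, was left out, although the difference stayed between -1.53 and -1.40. Without untreated APC-WT tumour 2, the APC-WT difference was -0.72. Ccn2 had a single probe set.

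Ccn1, encoding the related secreted protein CYR61, read 9.18, 9.60 and 9.08 in APC-WT tumours without Dox and 9.09, 8.92 and 8.85 with Dox, values that overlapped. In APC-KO tumours it read 9.68, 9.15 and 9.32 without Dox and 8.61, 8.78 and 8.87 with Dox, with all 3 Dox values below the others. The differences were -0.33 ± 0.14 and -0.63 ± 0.14. Each of the 4 Ccn1 probe sets separated the 2 APC-KO groups, by -0.50 to -0.99. Ccn1 was called in APC-KO tumours only when untreated tumour 2 of either genotype was left out.

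Ankrd1, which encodes an ankyrin-repeat protein of the muscle nucleus and sarcomere, is commonly read with Ccn1 and Ccn2 as a marker of YAP activity. Its values were 9.95, 10.16 and 10.13 in APC-WT without Dox, 10.26, 10.23 and 9.94 with Dox, 10.49, 10.12 and 10.27 in APC-KO without Dox and 10.28, 10.34 and 10.05 with Dox. Neighbours in the order of group means all overlapped. The differences with Dox were 0.06 ± 0.11 for APC-WT and -0.07 ± 0.11 for APC-KO.

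Promoter windows from RefSeq (build GRCm38.p6), the 250 bases before the start, were read for 6 of the 9 genes: Ankrd1, Ccn1, Cilp, Postn, Tgfbi and Tnc. The letters GGAATG, or CATTCC on the other strand, which TEAD factors are known to bind, were found in the Ccn1 and Ankrd1 windows and in 12.6% of 32851 windows of that length. These windows are shown, 5′ to 3′ on the gene's strand with the matches in capitals, because both genes are textbook targets of YAP and hold the motif. Ccn1 lies at chr3:145649986-145650235 (minus strand) and Ankrd1 at chr19:36119845-36120094 (minus strand).
Ccn1: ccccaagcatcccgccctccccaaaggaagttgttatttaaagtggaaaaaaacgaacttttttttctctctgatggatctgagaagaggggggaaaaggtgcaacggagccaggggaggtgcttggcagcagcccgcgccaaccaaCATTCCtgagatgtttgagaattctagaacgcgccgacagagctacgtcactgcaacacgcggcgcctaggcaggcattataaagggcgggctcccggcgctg
Ankrd1: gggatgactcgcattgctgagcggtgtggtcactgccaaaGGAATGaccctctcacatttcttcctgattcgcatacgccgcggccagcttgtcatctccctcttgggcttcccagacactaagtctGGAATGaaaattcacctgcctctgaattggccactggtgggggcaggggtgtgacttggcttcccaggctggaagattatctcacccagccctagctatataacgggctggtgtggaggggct
The Ccn1 window held 1 match, 103 to 98 bases before the start. The Ankrd1 window held 2, at 210 to 205 and at 123 to 118 bases before the start. No match was found in the windows of Cilp, Postn, Tgfbi or Tnc. The AP-1 letters TGANTCA occurred in 6.75% of all windows and the SMAD letters GTCTAGAC in 0.167%, and neither in those of the 6 genes. A match is a description of letters and does not show binding.

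**Figure D1:**
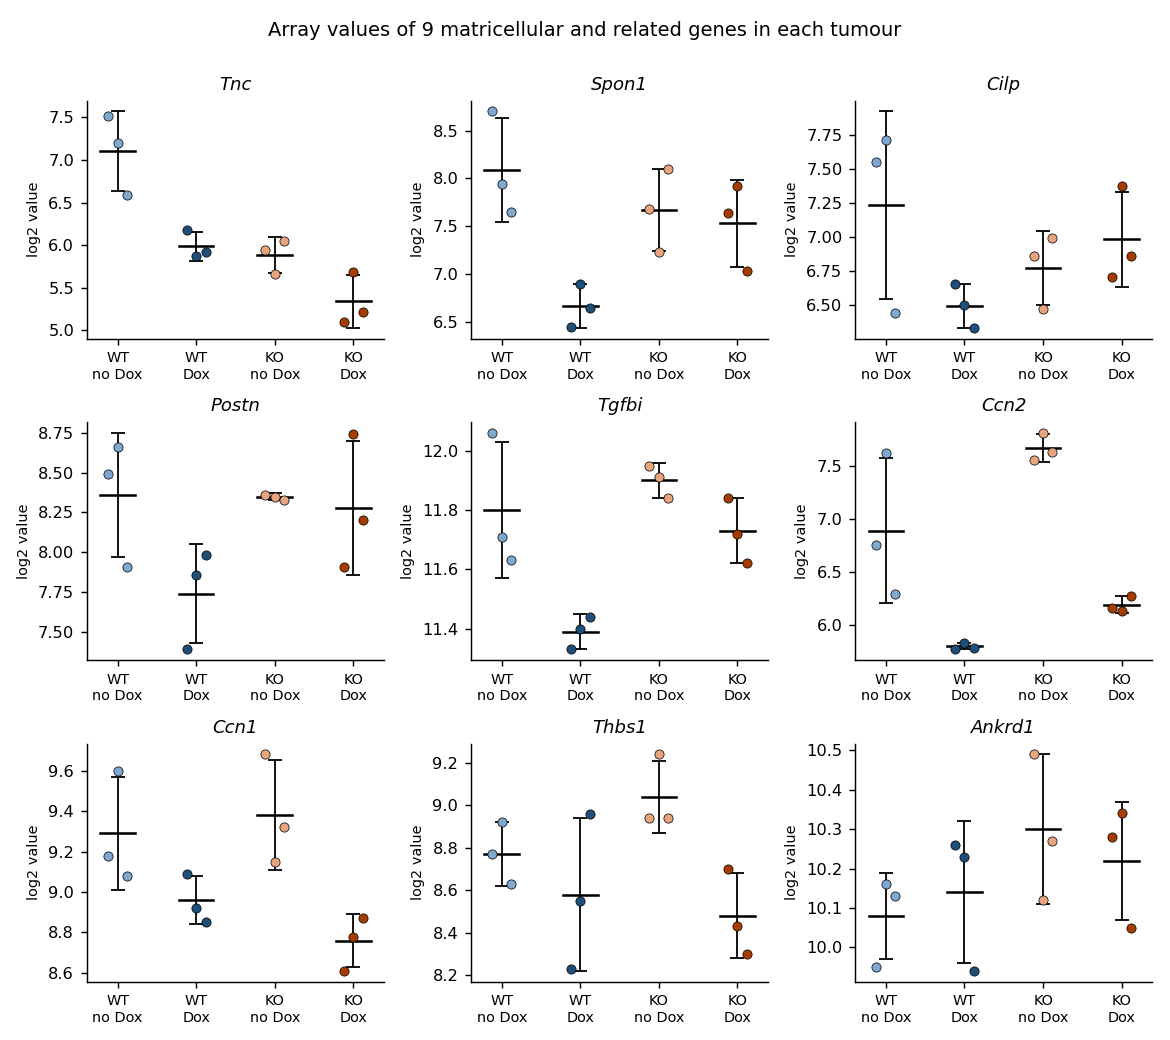
Log2 level of each of the 9 genes in each of the 12 tumours, by group (points, 1 per tumour; horizontal lines, group means; bars, SD, n = 3). In Tnc and Spon1 the 3 APC-WT tumours without Dox lie above those with Dox, in Ccn2 the tumours without Dox lie above those with Dox in both genotypes, and in Ankrd1 the groups overlap.

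Thbs1 encodes thrombospondin 1, a secreted glycoprotein that inhibits vessel growth and can activate latent TGF-beta. It read 8.77, 8.92 and 8.63 in APC-WT without Dox and 8.23, 8.55 and 8.96 with Dox, which overlapped. In APC-KO it read 8.94, 9.24 and 8.94 without Dox and 8.70, 8.43 and 8.30 with Dox, which did not overlap. The differences were -0.19 ± 0.16 and -0.57 ± 0.16, neither called. Its second probe set separated the APC-KO groups as well, by -0.58.

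Spon1, encoding F-spondin, a matrix protein of the nervous system and other tissues, had the largest difference of the 9 genes in APC-WT tumours. It read 8.70, 7.94 and 7.65 without Dox and 6.45, 6.90 and 6.65 with Dox. In APC-KO tumours it read 7.68, 7.23 and 8.10 without Dox and 7.64, 7.92 and 7.03 with Dox, and these overlapped. The differences were -1.43 ± 0.27 and -0.14 ± 0.27. A second probe set for Spon1, near the floor with a mean of 5.61, differed by -0.56 in APC-WT, without overlap.

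Cilp and Postn were lower in APC-WT tumours with Dox as well, with ranges that overlapped. Cilp, a matrix protein known from cartilage, read 7.55, 7.71 and 6.44 without Dox and 6.65, 6.50 and 6.33 with Dox. In APC-KO tumours it read 6.86, 6.47 and 6.99 without Dox and 6.70, 7.37 and 6.86 with Dox, the only 1 of the 9 genes with a higher mean there. Postn, periostin, read 8.49, 8.66 and 7.91 without Dox and 7.39, 7.86 and 7.98 with Dox in APC-WT tumours. In APC-KO tumours it read 8.36, 8.35 and 8.33 without Dox and 7.91, 8.74 and 8.20 with Dox. The differences for Cilp were -0.74 ± 0.27 and 0.20 ± 0.27, and for Postn -0.62 ± 0.21 and -0.06 ± 0.21.

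Tgfbi, whose protein binds collagens and integrins, had the smallest spread of the 9 within groups. It read 12.06, 11.71 and 11.63 in APC-WT without Dox and 11.33, 11.40 and 11.44 with Dox, with a difference of -0.41 ± 0.09 and no overlap. All 4 of its probe sets showed the same separation, between -0.35 and -0.41. In APC-KO it read 11.95, 11.91 and 11.84 without Dox and 11.84, 11.72 and 11.62 with Dox, a difference of -0.17 ± 0.09 with overlap. Another probe set overlapped there as well, at -0.13 ± 0.09. Those at -0.12 ± 0.07 and -0.10 ± 0.06 did not.

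Of the 9 genes, 0 were called with Dox in APC-WT tumours, where 3 genes in all, 0.0271% of those tested, were called and 1716 had an unadjusted p under 0.05. The count turned on 1 tumour. Untreated APC-WT tumour 3 was the lowest of its group for 8 of the 9 genes, all but Ankrd1. Without it, 6 genes were called (Ccn2, Cilp, Postn, Spon1, Tgfbi and Tnc), with Tnc at -1.37 and Spon1 at -1.65, and so were 418 of the 11070 genes. With array quality weights, 7 were called, the same 6 and Ccn1, and so were 653 of all genes. Leaving out any other tumour left the count at 0.

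**Figure D2:**
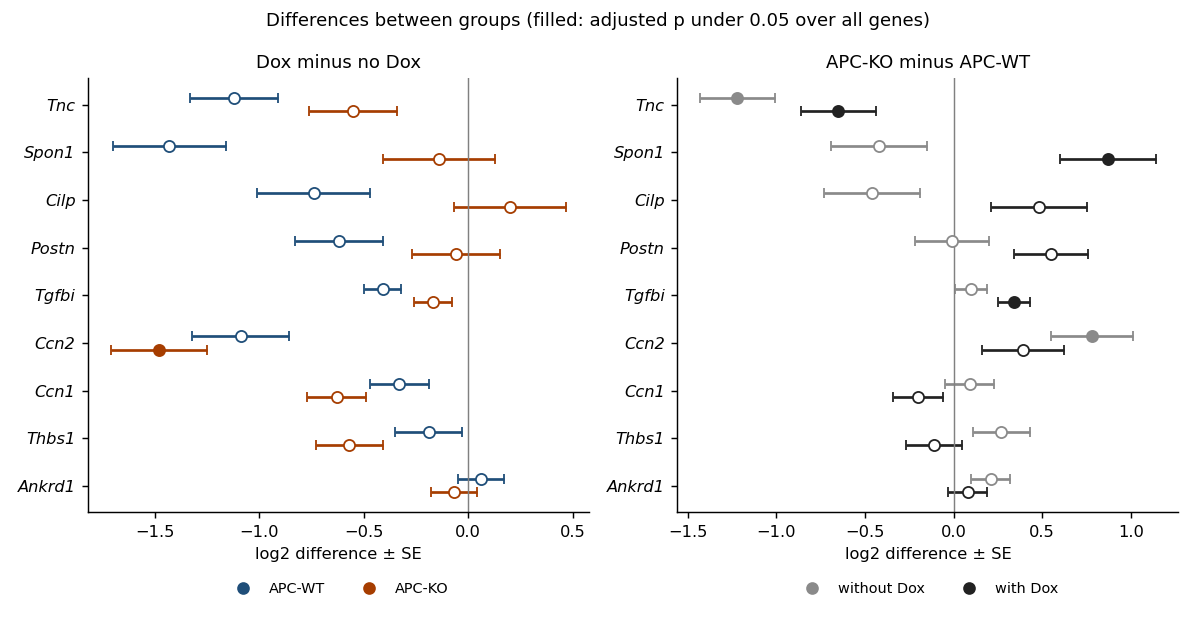
Log2 difference of each gene in the 4 comparisons (points, with the standard error of the fit as bars; filled where the adjusted p over all tested genes is under 0.05). Differences with Dox are below 0 for 8 of 9 genes in each genotype, and the APC-KO minus APC-WT differences lie on both sides of 0.

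Between genotypes, APC-KO tumours had less Tnc and, without Dox, more Ccn2 than APC-WT tumours did. These comparisons share tumours with the Dox ones, so the values are given side by side and not as separate evidence. Without Dox, Tnc differed by -1.22 ± 0.21 and was called, and its groups did not overlap. With 1 of the 12 tumours left out, the difference lay between -1.48 and -1.01. Ccn2 differed by 0.78 ± 0.23 and was called, although its groups overlapped, since 1 APC-WT value of 7.62 lay above the lowest APC-KO value of 7.55. That call was lost without untreated APC-WT tumour 1 or 3 (0.48 without tumour 3), or without untreated APC-KO tumour 2. It was also lost with array quality weights, where the difference was 0.47, and when only the 2 groups were fitted. Without untreated APC-WT tumour 2 it was called at 1.15. Of the 9 genes, 2 were called, against 24.9% of all tested genes, and 2, Tnc and Thbs1, had groups without overlap, against 37.2%.

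With Dox, the APC-KO minus APC-WT difference was -0.65 ± 0.21 for Tnc, 0.87 ± 0.27 for Spon1 and 0.34 ± 0.09 for Tgfbi, and these 3 of the 9 genes were called, against 19.9% of all genes. The ranges did not overlap for 5 of 9, the same 3 with Ccn2 (0.39 ± 0.23) and Cilp (0.48 ± 0.27), against 41.4%. Each call was lost when certain tumours were left out, that of Tnc also with no filter and that of Spon1 also without the trend. The Tnc and Spon1 calls were lost without any 1 of the Dox-treated APC-WT tumours, without untreated APC-KO tumour 1 and without Dox-treated APC-KO tumour 1. They were also lost without Dox-treated APC-KO tumour 3 for Tnc and tumour 2 for Spon1. The Tgfbi call was lost without tumour 1 or 2 of the APC-WT group or tumour 1 of the APC-KO group, both with Dox. Spon1 was -0.42 ± 0.27 without Dox, with ranges that overlapped. The other differences lay between -0.46 (Cilp) and 0.27 (Thbs1) without Dox and between -0.20 (Ccn1) and 0.55 (Postn) with Dox.

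The interaction, the Dox difference in APC-KO minus that in APC-WT, was largest for Spon1 at 1.29 ± 0.39, followed by Cilp at 0.94 ± 0.38. It was 0.57 ± 0.29 for Tnc and -0.39 ± 0.32 for Ccn2. None of the 9 was called, and neither was any of the 11070 genes (0% called, limma, smallest adjusted p 0.129, 1312 with an unadjusted p under 0.05). Without untreated APC-WT tumour 3, Cilp was called, at 1.34, as 1 of 119 genes called in all.

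Tumours of the same group varied more in these genes than in most, by an SD pooled over the 4 groups. The within-group SD was 0.43 for Spon1, at percentile 99.5 of the tested genes, 0.42 for Cilp, 0.35 for Ccn2, 0.33 for Postn, 0.31 for Tnc, 0.24 for Thbs1 and 0.21 for Ccn1, against a median of 0.10. Tgfbi at 0.13 and Ankrd1 at 0.16 were nearer to it. The groups differed in this. For Ccn2 the SD was 0.68 in APC-WT tumours without Dox and 0.03, 0.13 and 0.08 in the other groups. For Cilp it was 0.69 there and 0.16, 0.27 and 0.35 elsewhere. Postn and Thbs1 were widest in other groups, at 0.42 in APC-KO with Dox and 0.36 in APC-WT with Dox. After group means were removed, Tnc followed Cilp over the 12 tumours with r = 0.91, Spon1 with r = 0.69 and Postn with r = 0.57. Cilp and Postn correlated at r = 0.67, and Spon1 and Tgfbi at 0.63. Ccn1 and Ccn2 correlated at r = 0.53, below their correlations with Cilp (0.61 and 0.60), and Thbs1 and Ankrd1 at -0.43. These are descriptions across 12 tumours that share the arrays' normalization.

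**Figure D3:**
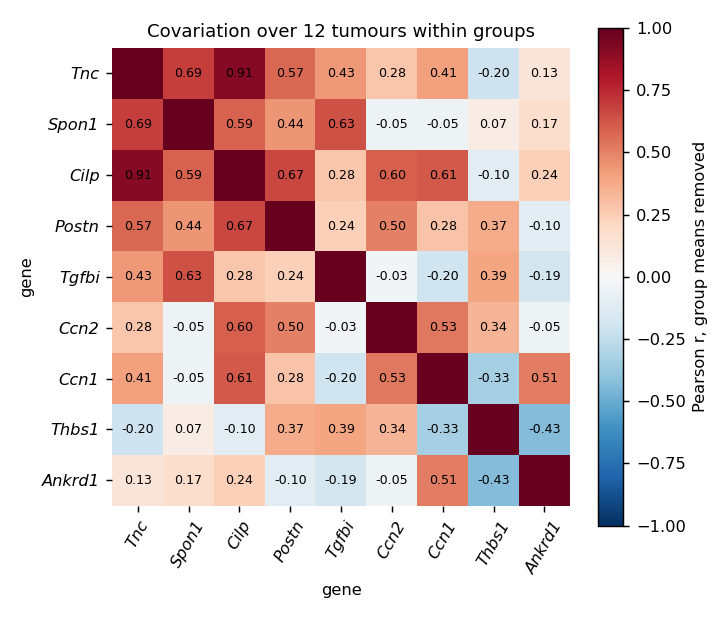
Pearson correlation between the 9 genes over the 12 tumours after the mean of each group was removed (colour and number). Values among Tnc, Spon1, Cilp and Postn are all positive, from 0.44 for Spon1 and Postn to 0.91 for Tnc and Cilp. They are not set apart, since Cilp stands at 0.61 with Ccn1 and 0.60 with Ccn2, and Tgfbi is positive with each of them.

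Among the 11061 other tested genes, predicted genes and unnamed clones were skipped. Of the rest, those whose level over the 12 tumours was most like Tnc were Pole3 (r = 0.96), Cgn (r = 0.96), Farp1 (r = 0.96), Cyp4v3 (r = 0.95) and Tmem71 (r = 0.95). With group means removed, these were 0.82, 0.82, 0.89, 0.73 and 0.66. For Ccn2 they were Thumpd2 (r = 0.93), Dusp1 (r = 0.90), Cpeb2 (r = 0.89), Dmxl2 (r = 0.87) and Clic5 (r = 0.87), and with group means removed 0.72, 0.91, 0.61, 0.28 and 0.61.

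Outside the 9 genes, the pathways they belong to held no gene called with Dox in either genotype, where 0.0271% and 0.542% of all tested genes were called, so nothing about the pathways is read from that count. The lists were 17 YAP and TAZ targets, 15 Hippo components, 11 TGF-beta ligands, receptors and Smads, 8 TGF-beta targets, 10 SRF and MRTF cytoskeletal targets, 8 other matricellular genes and 11 receptors of matricellular proteins, counting tested genes. The nearest to a call was Itgb8, an integrin chain that activates latent TGF-beta, at -0.84 ± 0.15 with Dox in APC-WT tumours (limma adjusted p 0.0786). The YAP and TAZ targets had a median difference of -0.14 in APC-WT and -0.01 in APC-KO with Dox, against -0.01 and 0.00 for all genes. F3, tissue factor, was -0.42 ± 0.14 and -0.36 ± 0.14 (adjusted p 0.187 and 0.284), and Asap1 -0.33 ± 0.10 in APC-WT (adjusted p 0.154). Among other matricellular genes, Fbln5 was -0.35 ± 0.18 and Ccn4 0.24 ± 0.08 in APC-WT (adjusted p 0.36 and 0.167). With array quality weights or without untreated APC-WT tumour 3, at most 2 genes of a list were called in APC-WT, and without Dox-treated APC-KO tumour 1, 1 receptor was called in APC-KO.

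Between genotypes, genes of the lists were called in both directions, beside all tested genes, of which 13.8% were called higher and 11.1% lower in APC-KO tumours without Dox, and 11.9% and 7.99% with Dox. Of the 17 YAP and TAZ targets, 2 were higher and 5 lower in APC-KO tumours without Dox, and 3 higher and 4 lower with Dox. F3 rose by 1.32 ± 0.14 without Dox and by 1.38 ± 0.14 with Dox (adjusted p 2.14e-05 and 1.4e-05). Ptpn14, a phosphatase that restrains YAP, fell by 0.74 ± 0.08 without Dox (adjusted p 3.33e-05). Amotl2, which also restrains YAP, fell by 0.62 ± 0.14 (adjusted p 0.00609). Among the 15 Hippo components, Amot, angiomotin, rose by 0.84 ± 0.08 without Dox and 0.91 ± 0.08 with it (adjusted p 1.42e-05 and 6.43e-06), and Yap1 fell, with -0.18 ± 0.06 and -0.28 ± 0.06 (adjusted p 0.033 and 0.00453). Of these 15, 1 was higher and 3 lower without Dox, and 1 higher and 2 lower with Dox. The count of 4 without Dox was 1 without untreated APC-WT tumour 1 or untreated APC-KO tumour 2 and 2 without untreated APC-WT tumour 3, and the count of 7 YAP and TAZ targets with Dox was 4 without Dox-treated APC-KO tumour 1.

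Of the 11 TGF-beta ligands, receptors and Smads, 1 was higher and 2 lower in each genotype comparison. Ltbp1, which holds latent TGF-beta in the matrix, rose by 0.78 ± 0.08 and 0.91 ± 0.08 (adjusted p 1.74e-05 and 4.2e-06), and Smad3 fell, with -0.42 ± 0.06 and -0.46 ± 0.06 (adjusted p 0.000332 and 0.00018). Of the 8 TGF-beta targets, 3 were higher and 1 lower without Dox, and 1 higher and 1 lower with Dox. The count of 2 with Dox was 4 when untreated APC-WT tumour 1 was left out. Ltbp2 rose by 1.01 ± 0.18 without Dox (adjusted p 0.00123). Of the 10 SRF and MRTF targets, 5 were lower and 0 higher without Dox, and 4 lower and 1 higher with Dox. Cnn2, a calponin, fell by 0.67 ± 0.06 without Dox (adjusted p 5.88e-06), and Srf itself fell, with -0.34 ± 0.08 and -0.55 ± 0.08 (adjusted p 0.00641 and 0.000247). The count of 5 without Dox was 2 when untreated APC-WT tumour 1 or 2 or untreated APC-KO tumour 3 was left out. The count of 5 with Dox was 3 when APC-WT tumour 2 or 3 or APC-KO tumour 1 of the treated groups was left out.

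Of the 8 other matricellular genes tested, out of 18 measured, 3 were higher and 1 lower in APC-KO tumours without Dox, and 3 higher and 0 lower with Dox. Sparcl1 rose by 0.66 ± 0.09 and 0.63 ± 0.09 (adjusted p 0.00018 and 0.000289) and Thbs3 by 0.50 ± 0.09 and 0.61 ± 0.09 (adjusted p 0.00102 and 0.000262). Of the 11 receptors, 3 were higher and 2 lower without Dox, and 2 higher and 1 lower with Dox. Itga9, a chain of a tenascin C receptor, rose by 0.56 ± 0.12 without Dox (adjusted p 0.00343), and Sdc4, syndecan 4, fell, with -0.25 ± 0.06 and -0.33 ± 0.06 (adjusted p 0.00877 and 0.00218). The count of 5 receptors without Dox was 3 when untreated APC-WT tumour 2 was left out.

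**Figure D4:**
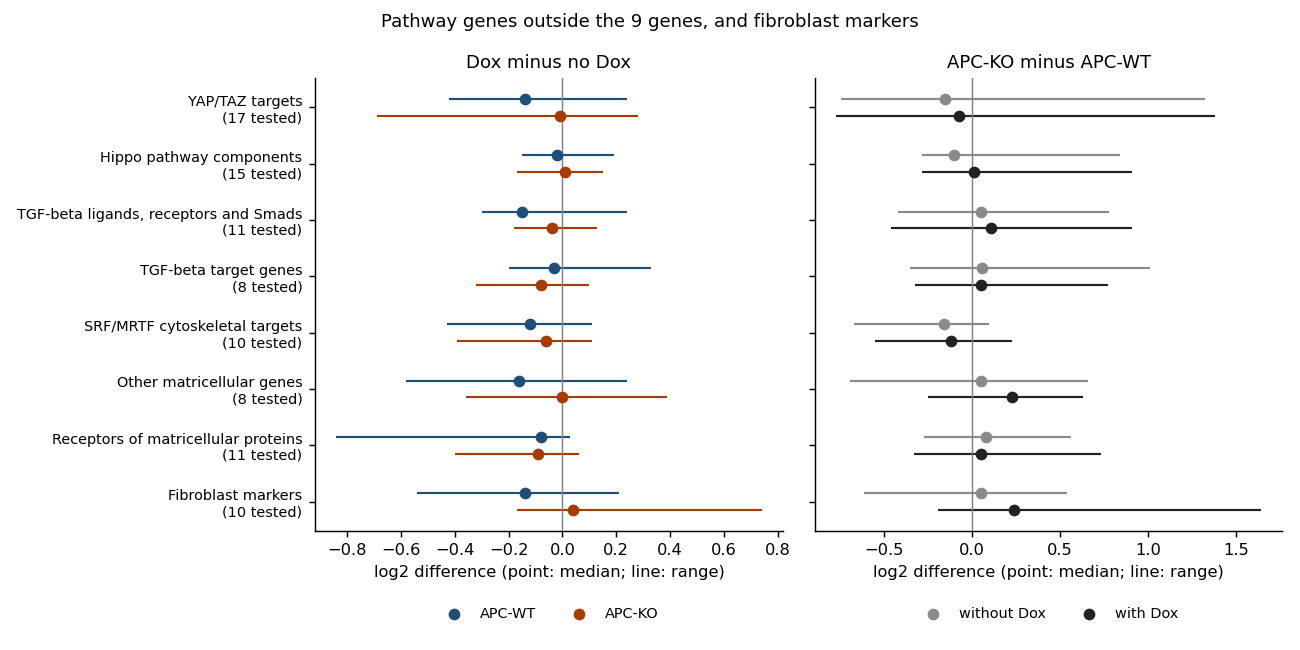
Median (point) and range (line) of the log2 differences in each pathway list and the fibroblast markers, for the 2 Dox comparisons and the 2 genotype comparisons. Medians of the Dox differences lie between -0.16 and 0.04, and the highest genotype difference plotted is 1.64, for Dpt among the fibroblast markers, whose APC-WT values with Dox lay under the floor.

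Markers of cell types moved with these differences in part. Each marker list was summed on the linear scale and the log2 of that sum taken, so its most abundant markers weigh most. In APC-WT tumours, this value for 10 fibroblast markers was 14.87 to 14.98 without Dox and 14.80 to 14.86 with Dox, which did not overlap. The means of the log2 values of these markers did overlap (9.84 to 10.11 and 9.82 to 9.87). No fibroblast marker fell below the floor on every array. None of the 10 was called, with Col1a1 at -0.33 ± 0.09 (adjusted p 0.147). T cell markers (9.49 to 9.91 against 9.12 to 9.49) and epithelial markers (10.46 to 11.79 against 9.88 to 10.07) were lower with Dox as well. Of the epithelial markers tested, Krt8 was -1.35 ± 0.41, Cdh1 -0.75 ± 0.17 and Epcam 0.19 ± 0.09 there, none called. In APC-KO tumours the fibroblast sums overlapped (14.92 to 15.10 and 14.96 to 15.02). Neutrophil markers there were 8.94 to 10.84 without Dox and 7.30 to 7.77 with Dox, and S100a9 and S100a8 fell from group means of 9.04 and 8.62 to values that all lay under the floor (adjusted p 0.0133 and 0.0113). Neither was called without untreated APC-KO tumour 1 or Dox-treated APC-KO tumour 3. Macrophage markers were 14.70 to 14.75 and 14.64 to 14.67, platelet markers 9.93 to 10.50 and 9.86 to 9.92, and epithelial markers 9.78 to 10.44 and 8.91 to 9.66, all lower with Dox without overlap. The mean of the log2 values of the macrophage markers did overlap (11.37 to 11.45 and 11.31 to 11.40). Among epithelial markers, Krt8 was -1.34 ± 0.41 with Dox in APC-KO, while Cdh1 was 0.05 ± 0.17 and Epcam -0.01 ± 0.09, none called. With Dox, fibroblast markers were higher in APC-KO (14.96 to 15.02) than in APC-WT tumours (14.80 to 14.86), and 4 of 10, Dpt, Col1a1, Pdgfra and Col3a1, were called higher. Endothelial markers were higher there too (9.99 to 10.13 against 9.75 to 9.88), and the mesothelial, platelet, macrophage, neutrophil, T cell and epithelial sums were lower in APC-KO, each without overlap. The means of log2 values overlapped for macrophage (11.31 to 11.40 against 11.38 to 11.47) and epithelial markers (5.14 to 5.31 against 5.28 to 5.49). Of the 3 epithelial markers tested, Krt8 was -1.21 ± 0.41 and Epcam 0.02 ± 0.09, neither called. Cdh1, under the floor on 4 of these arrays, was called higher at 0.63 ± 0.17. Of the neutrophil markers, Csf3r was 0.18 ± 0.09, not called, and of the mesothelial ones only Msln was tested. Without Dox, APC-KO tumours had lower sums than APC-WT tumours of T cell (9.02 to 9.04 against 9.49 to 9.91), mesothelial (9.48 to 10.01 against 10.22 to 10.60) and epithelial markers (9.78 to 10.44 against 10.46 to 11.79). The means of log2 values overlapped for mesothelial (4.84 to 5.13 against 5.06 to 5.17) and epithelial markers (5.41 to 5.69 against 5.55 to 5.91). The neutrophil sum was higher in APC-KO tumours (8.94 to 10.84 against 7.37 to 8.33), and their fibroblast sum overlapped with that of APC-WT. Smooth muscle and pericyte markers overlapped in all 4 comparisons. The part of these cell types in the differences of the 9 genes was not tested.

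Some signs of RNA quality moved too. The 18S ribosomal RNA signal, read from its middle probe set, was 9.80, 10.16 and 9.89 in APC-KO tumours without Dox and 9.34, 9.37 and 9.61 with Dox. In APC-WT tumours without Dox it was 9.59, 9.46 and 9.58, below all APC-KO tumours without Dox. APC-WT tumours with Dox read 9.39, 9.57 and 9.61, which overlapped with APC-WT tumours without Dox. The 3′ minus 5′ difference of Gapdh was -0.09, -0.12 and -0.12 in APC-WT tumours without Dox and -0.19, -0.16 and -0.16 with Dox. It was -0.18, -0.15 and -0.15 in APC-KO tumours without Dox, so it separated the genotypes there as well. APC-KO tumours with Dox read -0.16, -0.12 and -0.11, which overlapped with those without. The same difference for Actb was 0.18 to 0.25 in APC-WT tumours without Dox and 0.17 to 0.19 with Dox. In APC-KO tumours it was 0.17 to 0.22 and 0.19 to 0.28, so it overlapped with and without Dox in both genotypes. The part of these signals in the results was not tested.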

How the data were processed

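The authors deposited log2 expression values. MAS5 is named in the submitters' processing notes without a version, and the sources used here do not give its handling of background, scaling and logarithm. The log2 scale was read from the values themselves, which span 1.86 to 14.16. No normalization was added. Of 45101 probe sets, 64 controls were set aside, and the probe set of highest mean stood for each of 18193 genes. The 11070 genes with a mean of at least 5.55 were tested. For arrays, their number and the signal over background limit the precision.

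A group-means model of the 12 arrays was fitted with limma 3.58.1 (R 4.3.3, eBayes with a trend), 2-sided, with Benjamini-Hochberg adjustment over the tested genes and a threshold of 0.05. With 3 tumours a group, no exact permutation test of single values could reach it, since the smallest p is 0.1. The code was tested on simulated data. Plots were made in matplotlib 3.10.9 (Python 3.11.15). Promoter sequences came from RefSeq.

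The 9 genes and the lists were chosen with earlier results of these data known. Named were the 9 genes, Tdo2, Apc, up to 4 genes per list and comparison (called with the largest difference first, then smallest p) and, for Tnc and Ccn2, the 5 tested genes of highest correlation. Predicted genes and unnamed clones were skipped in that ranking by correlation. Some genes of the lists were not analysed here. Alternatives were another gene summary, other filters, eBayes without a trend, quantile normalization, array quality weights (with statmod 1.5.0), fits of single comparisons, a replicate block and leaving out each array.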

Additional observations from a re-analysis of the deposited data

How the results depend on the processing

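No called difference of the 9 genes changed sign. Counts over all genes and over the 9 genes that moved by over 1.5 times come first, and their cause was not tested beyond the fewer genes that a summary or filter leaves. With Dox in APC-WT, 3 genes were called in all, and 0 when probe sets were averaged, 18 in a fit of these 2 groups alone, 653 under array quality weights (7 of the 9 genes) and 6 under the replicate block. With Dox in APC-KO, 60 were called, and 35 when probe sets were averaged, 29 without the trend and 36 in a fit of these groups alone. Array quality weights raised the count between genotypes with Dox from 2205 to 3510, and that of the interaction from 0 to 13. Of the 9 genes, 7 were tested when probe sets were averaged and 5 above the 75th percentile (7.81). Tnc and Spon1 were tested in neither, and Ccn2 and Cilp not above that percentile, so they could not be called there. With Dox in APC-KO, 1 of the 9, Ccn2, was called, and 0 above that percentile, where Ccn2 was not tested. Between genotypes without Dox, 2 were called, Tnc and Ccn2, and 0 above that percentile, where neither was tested. Ccn2 alone was called when probe sets were averaged, where Tnc was not tested. Tnc alone was called under array weights or in a fit of the pair of groups, where the Ccn2 call was lost. Between genotypes with Dox, 3 were called, Tnc, Spon1 and Tgfbi. Tgfbi alone was called when probe sets were averaged or above that percentile, where Tnc and Spon1 were not tested. Under the replicate block, which tested all 9, the calls of Tnc and Spon1 were lost and Tgfbi was left.

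List counts between genotypes moved by over 1.5 times too. Without Dox, the Hippo count of 4 was 2 in a fit of the groups alone or under array weights. The SRF and MRTF count of 5 was 3 when probe sets were averaged and 2 in a fit of the groups alone, and the receptor count of 5 was 3 in both and above the 75th percentile. With Dox, array weights gave 5 in place of 3 Hippo components, 3 TGF-beta ligands, receptors and Smads, 3 receptors and 2 TGF-beta targets. The Hippo count was also 5 under quantile normalization, that of ligands, receptors and Smads also 5 above the percentile, and both that count and the receptors' 5 in a fit of the groups alone. The SRF and MRTF count of 5 was 2 when probe sets were averaged, and 7 YAP and TAZ targets became 4 above the percentile.

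Leaving out 1 array gave 0 to 418 genes called for Dox in APC-WT (0 to 6 of the 9), 1 to 92 for APC-KO (0 to 2), 2150 to 2739 between untreated genotypes (1 to 2), 1291 to 2354 between treated ones (0 to 4) and 0 to 119 for the interaction (0 to 1). Replicate numbers did not pair the tumours: 3 of 18 same-numbered pairs correlated over 0.1 (range -0.22 to 0.17), and 5 of 12 tumours correlated best with their own number. Values near the floor, such as Tnc in APC-KO tumours, can hide the size of a difference.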
